A study of Homo sapiens with 6 samples.

Results

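The genes described here are 50 genes of mitosis, namely the cyclins and kinases that drive entry into division, the chromosomal passenger and spindle checkpoint proteins, centromere and kinetochore proteins, condensin, cytokinesis factors, and a pair of transcription factors of the division programme. They were chosen by gene symbol, with kinesin motors other than CENPE left out, and all 50 were found among the 58735 genes of the count table and had enough reads to be tested. RNA was sequenced from 3 samples of KYSE410, a cell line from a human oesophageal squamous cell carcinoma, in which ADAR1 had been knocked down (siADAR1), and from 3 control samples. The titles call the controls NC, their genotype is given as wild type, and the treatment field of both groups reads "No". The labels do not say whether the controls received a non-targeting siRNA, how long after delivery the cells were collected, or whether replicates were separate cultures, so the p-values measure the spread between these samples only. ADAR1, encoded by ADAR, changes adenosine to inosine in double-stranded RNA. All data come from 1 cell line.

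A dividing cell switches on the mitotic genes late in its cycle. Cyclin B with CDK1, PLK1 and the Aurora kinases start mitosis, kinetochores built on centromeres attach chromosomes to the spindle, and the checkpoint proteins hold back the anaphase-promoting complex (APC/C) until every kinetochore is attached. The APC/C with CDC20 then marks cyclin B and securin for destruction, and separase cuts cohesin. Transcription of many of these genes depends on B-MYB and FOXM1 acting with the MuvB core, which binds a promoter element called CHR (cell cycle genes homology region), together with NF-Y at CCAAT boxes. In resting cells the DREAM complex represses through the same element. In a bulk sample, fewer cells in mitosis and less RNA per dividing cell cannot be told apart, and this holds for every value below.

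The libraries held 15175619 to 17329443 counts, and 15294 genes were tested. Levels are counts-per-million (CPM) on library sizes after TMM scaling, which takes a trimmed mean of log ratios between libraries, and fold changes are siADAR1 over control from edgeR's quasi-likelihood test, with Benjamini-Hochberg adjustment across the whole table and 0.05 as the threshold. ADAR, the target, had 92.8, 95.7 and 77.6 CPM in siADAR1 libraries, against 456, 432 and 444 CPM in control libraries. Of 9 squamous epithelial markers, 8 exceeded a mean of 1 CPM, among them TP63, KRT5 and KRT17, while KRT14 had 4 reads in all. The summed level of the squamous list was 1391 to 1455 CPM in siADAR1 and 1496 to 1546 CPM in control. CDH1 and EPCAM alone had 544 and 218 CPM in control replicate 1, so the sum leaned on a few genes. Single squamous markers differed more than their sum, as in those named next, which were picked after their values were seen. DSG3 had 61.9 to 69.8 CPM in siADAR1 and 16.8 to 26.9 CPM in control, and KRT17 343 to 430.5 CPM in siADAR1 and 278 to 302 CPM in control, both higher in every siADAR1 library. KRT6A had 4.23 to 7.83 CPM in siADAR1 and 24.2 to 29.5 CPM in control, and SFN 114 to 127 CPM in siADAR1 and 163 to 254 CPM in control, both lower in every siADAR1 library. TP63 was also higher in every siADAR1 library, at 155 to 185 CPM against 110 to 135 CPM in control. KRT5 (19.6 to 25.7 CPM in siADAR1, 27.4 to 40.7 CPM in control) and CDH1 (375 to 497 CPM in siADAR1, 544 to 609 CPM in control) were also lower in every siADAR1 library. Of 5 fibroblast markers DCN was at 0 and 2, LUM and COL1A1, were above 1 CPM, with the list summing to 71.7 to 83.7 CPM in siADAR1 and 40.0 to 57.3 CPM in control. Leukocyte markers summed to at most 0.282 CPM in siADAR1 and 0.328 CPM in control, with CD3E and LYZ at 0, and endothelial markers to 1.33 and 2.15 CPM, with KDR at 0. The part of these marker differences in the results below was not tested. The libraries numbered 1 stood apart in both groups, which touches several long genes described further on.

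Most of the mitotic genes fell in siADAR1. Of the 50 genes, 44 fell, 0 rose and 6 did not pass, where 25.0% of all tested genes fell and 26.0% rose. Of the genes averaging 10 CPM or more, a class that holds 49 of the 50, 31.8% fell. The count of 0 rises was also 0 at an unadjusted p below 0.05 in edgeR, with DESeq2 and with limma-voom, and all 50 log2 fold changes were negative. Their median was -1.03, beside a median of 0.00 over all tested genes, and they ranged from -1.50 for NUF2 to -0.38 for SMC4. A fall of at least 2-fold was called for 26 of the 50 genes, where 4.94% of all tested genes fell that far. For 43 genes every siADAR1 library lay below every control library, where this held for 29.7% of tested genes. Together the 50 genes took 0.381%, 0.483% and 0.482% of all counts in the siADAR1 libraries, against 0.736%, 0.857% and 0.865% in the control libraries.

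The fall was of similar direction in each library but deeper in siADAR1 replicate 1. The median log2 ratio of the 50 genes to their control means was -1.30, -0.90 and -0.88 in the siADAR1 libraries, against -0.11, 0.07 and 0.04 in the control libraries. Scaling by library totals alone moved the median of all tested genes up by 0.12 on the log2 scale and the share of calls that were higher to 62.9%, against 50.9% with TMM. Under that scaling 44 of the 50 genes still fell and 0 rose, with a median of -0.91, but 17 rather than 26 fell by at least 2-fold, where 3.48% of all tested genes did. With both libraries numbered 1 left out, a setting chosen after the data had been seen, 49 fell and 0 rose.

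**Figure D1:**
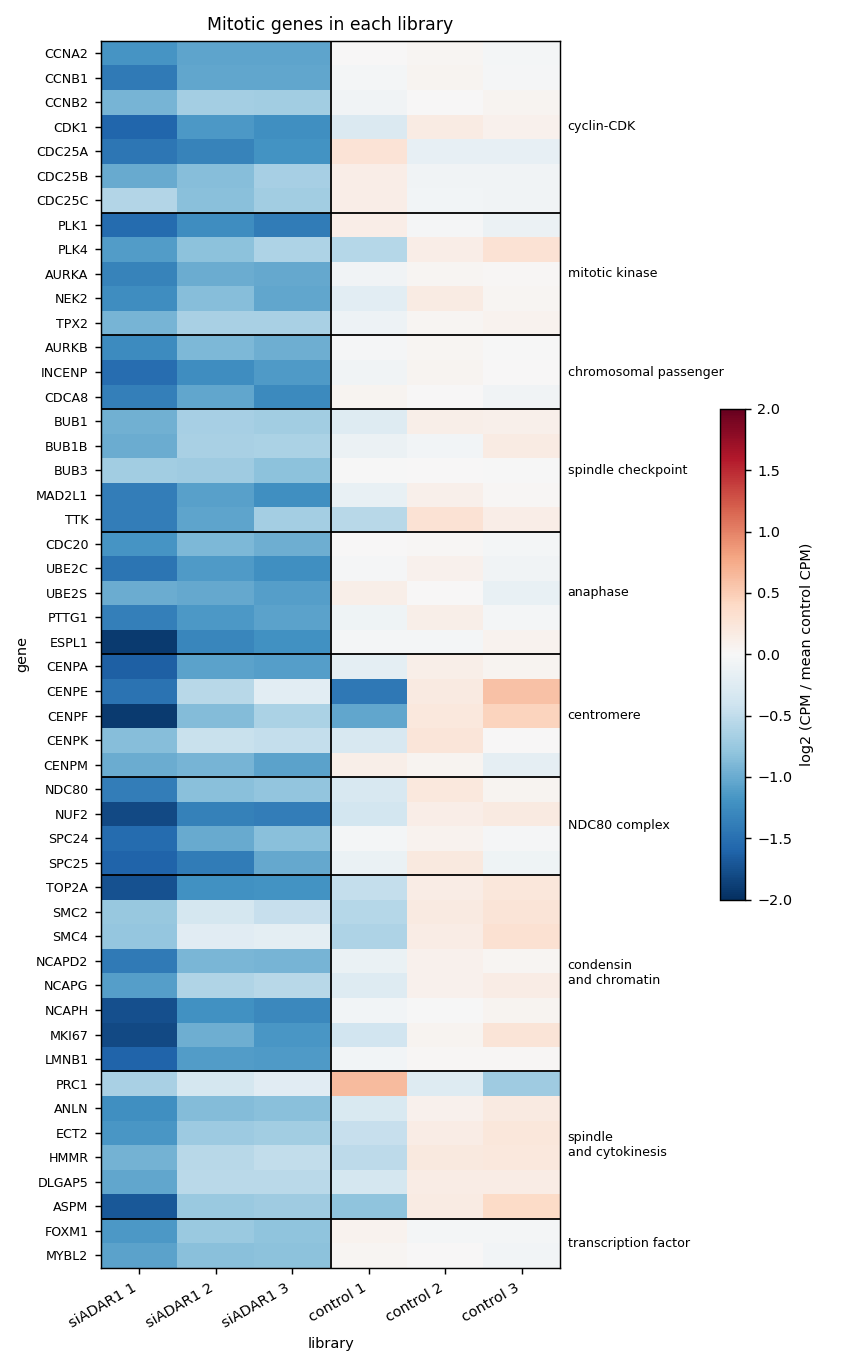
Colour shows the log2 ratio of each gene's CPM to its mean over the control libraries, with genes in rows by role and libraries in columns, siADAR1 on the left and control on the right. Nearly every siADAR1 cell is blue, deepest in replicate 1. CENPE, CENPF, ASPM, SMC2 and SMC4 are also blue in control replicate 1, as are genes that passed, such as PLK4 and TTK.

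The promoters of these genes were also read. The genes were chosen by function, and the CHR and CCAAT box are known elements of such genes. The counts below therefore describe the list and not its fall. RefSeq promoter sequences (GRCh38.p14, 250 bases before to 50 bases after the annotated start) were matched by symbol for 43 of the 50 genes, and the CHR was searched as TTTGAA or TTTAAA on both strands. Other forms of the CHR were not searched, so a gene without a match here may still hold such a form. A gene with several annotated starts counted if any of its promoters held a match, as CDC25B did through a TTTAAA at base 33 after 1 of its starts. The number of starts was not matched to that of all genes, which include genes not tested here. A CHR was present for 34 of the 43 genes (79.1%), where 27.9% of 27305 genes with a promoter in the table had one, and it lay within the 50 bases before the start for 17 genes (39.5%), against 5.49% of all genes. A CCAAT box on either strand was found for 34 of the 43 genes (79.1%) and for 39.7% of all genes. Both elements were found for 24 (55.8%), against 11.2% of all genes. Matches can share letters, as where TTTGAA runs into TTGG and its last base also begins ATTGG, the CCAAT box of the other strand. Windows of 30 bases around a CHR are shown for 1 gene of most role groups, to let the common letters be compared, with the CHR in capitals and read in the direction of transcription.
CCNB1, chr5:69167108-69167137, + strand: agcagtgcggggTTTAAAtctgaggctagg
PLK1, chr16:23678848-23678877, + strand: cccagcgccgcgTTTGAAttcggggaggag
CDCA8, chr1:37692481-37692510, + strand: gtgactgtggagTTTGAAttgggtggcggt
BUB1B, chr15:40161034-40161063, + strand: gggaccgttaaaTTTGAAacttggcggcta
ESPL1, chr12:53268256-53268285, + strand: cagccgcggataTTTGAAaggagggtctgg
CENPA, chr2:26786026-26786055, + strand: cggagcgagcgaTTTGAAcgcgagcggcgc
NUF2, chr1:163321958-163321987, + strand: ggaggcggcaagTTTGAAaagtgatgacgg
MKI67, chr10:128126435-128126464, - strand: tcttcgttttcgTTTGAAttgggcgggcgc
HMMR, chr5:163460592-163460621, + strand: aatgtggggagaTTTGAAtttgaaaccggt
The CHR begins 30 bases before the annotated start in CCNB1, 29 before it in PLK1, 23 in CDCA8 and BUB1B, 31 in ESPL1, 18 in CENPA, 29 in MKI67 and 28 in HMMR, and at base 17 after it in NUF2. HMMR carries a second TTTGAA directly after the first, printed in lower case.

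The 250 bases before the start of CCNB2 and of PLK1 show how the elements are spaced. CHR letters and CCAAT boxes are in capitals.
CCNB2, chr15:59104896-59105145, + strand: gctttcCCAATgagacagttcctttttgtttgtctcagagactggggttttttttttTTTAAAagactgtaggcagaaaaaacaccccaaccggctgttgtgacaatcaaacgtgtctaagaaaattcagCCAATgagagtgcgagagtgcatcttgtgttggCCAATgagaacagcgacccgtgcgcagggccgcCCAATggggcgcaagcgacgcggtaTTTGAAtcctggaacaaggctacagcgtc
PLK1, chr16:23678639-23678888, + strand: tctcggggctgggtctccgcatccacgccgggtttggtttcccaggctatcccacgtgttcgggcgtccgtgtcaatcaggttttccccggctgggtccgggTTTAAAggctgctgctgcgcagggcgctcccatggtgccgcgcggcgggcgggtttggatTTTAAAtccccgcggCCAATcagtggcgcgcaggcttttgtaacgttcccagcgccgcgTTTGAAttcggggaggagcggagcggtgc
CCNB2 holds 4 CCAAT boxes upstream of its TTTGAA, and a TTTAAA farther out, while PLK1 holds 1 CCAAT box and 3 CHR matches. CCNB2 fell to 59.1% of control and PLK1 to 38.2%. Among the 43 genes, the 34 with TTTGAA or TTTAAA had a median log2 fold change of -1.03. For the 9 with neither form (CCNA2, CDC25A, NEK2, AURKB, BUB1, UBE2S, CENPK, SPC24 and MYBL2) the median was -1.04. For the CCAAT box the medians were -1.08 with it and -0.75 without it, with ranges of -1.45 to -0.41 with it and -1.50 to -0.38 without it. The 24 genes with both elements had a median of -1.21, against -0.91 in the other 19. With a CHR within 50 bases before the start the median was -1.15, against -1.04 in the other 26. For TTTAAA it was -1.17 with it and -1.01 without it, and for TTTGAA -0.999 with it and -1.04 without it. These differences in median were not tested, and the sets share genes. These matches describe letters in a window and are not evidence of binding.

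The cyclins and CDK1, which form the kinase that drives entry into mitosis, all fell. CCNB1 (ENSG00000134057, chromosome 5, 69167010 to 69178245, GRCh38), which encodes cyclin B1, had 104, 135 and 135 CPM in siADAR1 libraries, against 269, 287 and 272 CPM in control libraries. CDK1 (ENSG00000170312, chromosome 10, 60778331 to 60794852), its kinase partner, had 50.3, 67.8 and 64.4 CPM in siADAR1 libraries, against 123, 168 and 159.6 CPM in control libraries. In both genes the highest siADAR1 library lay well below the lowest control library. The log2 fold change was -1.15 ± 0.10 (SE) for CCNB1, with an edgeR adjusted p of 2.29e-06, and -1.31 ± 0.14 for CDK1, with an adjusted p of 8.88e-06. CCNA2, the cyclin of S phase and early mitosis, fell to 46.9% of control and CCNB2, the other B-type cyclin of dividing somatic cells, to 59.1%. The 3 CDC25 phosphatase genes, whose products remove inhibitory phosphates from CDKs, fell by different amounts. CDC25A, which also acts at the start of S phase, had 21.4, 22.98 and 25.4 CPM in siADAR1 libraries, against 70.6, 51.96 and 52.2 CPM in control libraries. Its log2 fold change was -1.32 ± 0.14, while CDC25B, a starter of CDK1 activation, had -0.84 ± 0.11 and CDC25C, which amplifies it, -0.70 ± 0.14 (edgeR adjusted p = 5.83e-06, 3.70e-05 and 0.00118).

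All 5 genes of mitotic kinases and their activator fell, and PLK1 had the largest fold change. PLK1 (ENSG00000166851, chromosome 16, 23677656 to 23690367), the Polo-like kinase of mitotic entry, centrosome maturation and cytokinesis, had 75.4, 92.9 and 82.8 CPM in siADAR1 libraries, against 241, 215 and 201 CPM in control libraries. The groups were far apart, with a log2 fold change of -1.39 ± 0.10 and an edgeR adjusted p of 4.86e-07. AURKA (ENSG00000087586, chromosome 20, 56369389 to 56392337), the Aurora kinase of centrosomes and spindle poles, averaged 128 ± 16.7 CPM in siADAR1 and 275 ± 10.9 CPM in control (SD, n = 3 each), a log2 fold change of -1.11 ± 0.10 (adjusted p = 2.34e-06). TPX2, which activates Aurora A on spindle microtubules, fell to 60.04% of control, with a log2 fold change of -0.74 ± 0.09 (adjusted p = 2.77e-05). NEK2, a kinase of centrosome separation, had a log2 fold change of -1.04 ± 0.13. PLK4 (ENSG00000142731, chromosome 4, 127880861 to 127899195), which starts centriole duplication, had 24.98, 30.8 and 35.4 CPM in siADAR1 libraries, against 36.3, 59.7 and 66.5 CPM in control libraries. Its siADAR1 replicate 3 lay just under control replicate 1, and its log2 fold change of -0.83 ± 0.22 passed with an edgeR adjusted p of 0.0107. Without siADAR1 replicate 1 the adjusted p for PLK4 was 0.0577, within a range of 4.72e-10 to 0.0803 over its 17 alternatives.

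The chromosomal passenger complex, which senses tension at centromeres and later directs cytokinesis, was lower in all 3 of the subunits listed here. INCENP (ENSG00000149503, chromosome 11, 62123973 to 62153163), the scaffold, had 29.5, 36.03 and 38.6 CPM in siADAR1 libraries, against 80.9, 88.1 and 85.6 CPM in control libraries. AURKB (ENSG00000178999, chromosome 17, 8204733 to 8210600), the kinase, had 33.1, 42.7 and 40.5 CPM in siADAR1 libraries, against 77.9, 81.7 and 78.9 CPM in control libraries. CDCA8, which encodes borealin, averaged 40.9 ± 4.77 CPM in siADAR1 and 95.2 ± 4.45 CPM in control (SD, n = 3 each). No siADAR1 library of the 3 genes reached a control library, and the log2 fold changes were -1.29 ± 0.11 for INCENP, -1.22 ± 0.11 for CDCA8 and -1.04 ± 0.11 for AURKB (edgeR adjusted p = 1.73e-06, 1.61e-06 and 7.11e-06). BIRC5, which encodes survivin, the other subunit, was taken from the list of further mitotic genes and fell to 45.1% of control, with a log2 fold change of -1.15 ± 0.10.

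All 5 spindle checkpoint genes fell, in a wide span. MAD2L1 (ENSG00000164109, chromosome 4, 120055608 to 120067074), whose product MAD2 binds and holds CDC20, had 48.3, 59.3 and 53.97 CPM in siADAR1 libraries, against 114, 136 and 129 CPM in control libraries. Its log2 fold change was -1.23 ± 0.10 (edgeR adjusted p = 1.47e-06). The 3 BUB genes had smaller fold changes. BUB3 (ENSG00000154473, chromosome 10, 123154277 to 123170467), which recruits the BUB kinases to kinetochores, had 105, 103 and 96.2 CPM in siADAR1 libraries, against 168, 170.4 and 169 CPM in control libraries, with little spread in either group. Its log2 fold change was -0.74 ± 0.08, beside -0.77 ± 0.12 for the kinase gene BUB1 and -0.75 ± 0.12 for BUB1B, which encodes BUBR1 (edgeR adjusted p = 1.07e-05, 1.68e-04 and 1.68e-04). TTK, which encodes the kinase MPS1 at the top of the checkpoint, had 13.9, 17.4 and 22.6 CPM in siADAR1 libraries, against 24.7, 44.6 and 39.9 CPM in control libraries. The TTK groups came close, at siADAR1 replicate 3 and control replicate 1, and its log2 fold change was -1.02 ± 0.23 (edgeR adjusted p = 0.00502).

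The 5 genes that end mitosis all fell. With TMM all 5 fell by 2-fold or more, but with library totals alone CDC20 and UBE2S had log2 fold changes of -0.89 and -0.92, and without both libraries numbered 1 of -0.93 and -0.99. CDC20 was also short of 2-fold without siADAR1 replicate 1 (-0.93) and with a minimum count of 50 (-0.997), and UBE2S without control replicate 1 (-0.98). ESPL1 (ENSG00000135476, chromosome 12, 53268299 to 53293643), which encodes separase, the protease that cuts cohesin, had 22.7, 34.95 and 37.2 CPM in siADAR1 libraries, against 83.7, 83.7 and 90.5 CPM in control libraries. It fell to 36.8% of control, a log2 fold change of -1.44 ± 0.15 (edgeR adjusted p = 1.02e-05). PTTG1 (ENSG00000164611, chromosome 5, 160421822 to 160428744), which encodes securin, the inhibitor of separase, had 40.2, 46.7 and 49.6 CPM in siADAR1 libraries, against 97.7, 113 and 101 CPM in control libraries, a log2 fold change of -1.19 ± 0.11 (adjusted p = 2.02e-06). CDC20 (ENSG00000117399, chromosome 1, 43358955 to 43363203), the activator of the APC/C, averaged 139 ± 14.2 CPM in siADAR1 and 279.9 ± 5.94 CPM in control (SD, n = 3 each), or 49.6% of control. UBE2C, which starts ubiquitin chains on APC/C substrates, had 99.6, 126 and 117 CPM in siADAR1 libraries, against 269, 293 and 262 CPM in control libraries, and UBE2S, which extends them, had 171, 168 and 159.8 CPM in siADAR1 libraries, against 372, 343 and 308 CPM in control libraries. The UBE2C and UBE2S libraries of the groups were well separated, with log2 fold changes of -1.27 ± 0.10 and -1.04 ± 0.09 (edgeR adjusted p = 7.30e-07 and 1.44e-06).

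**Figure D2:**
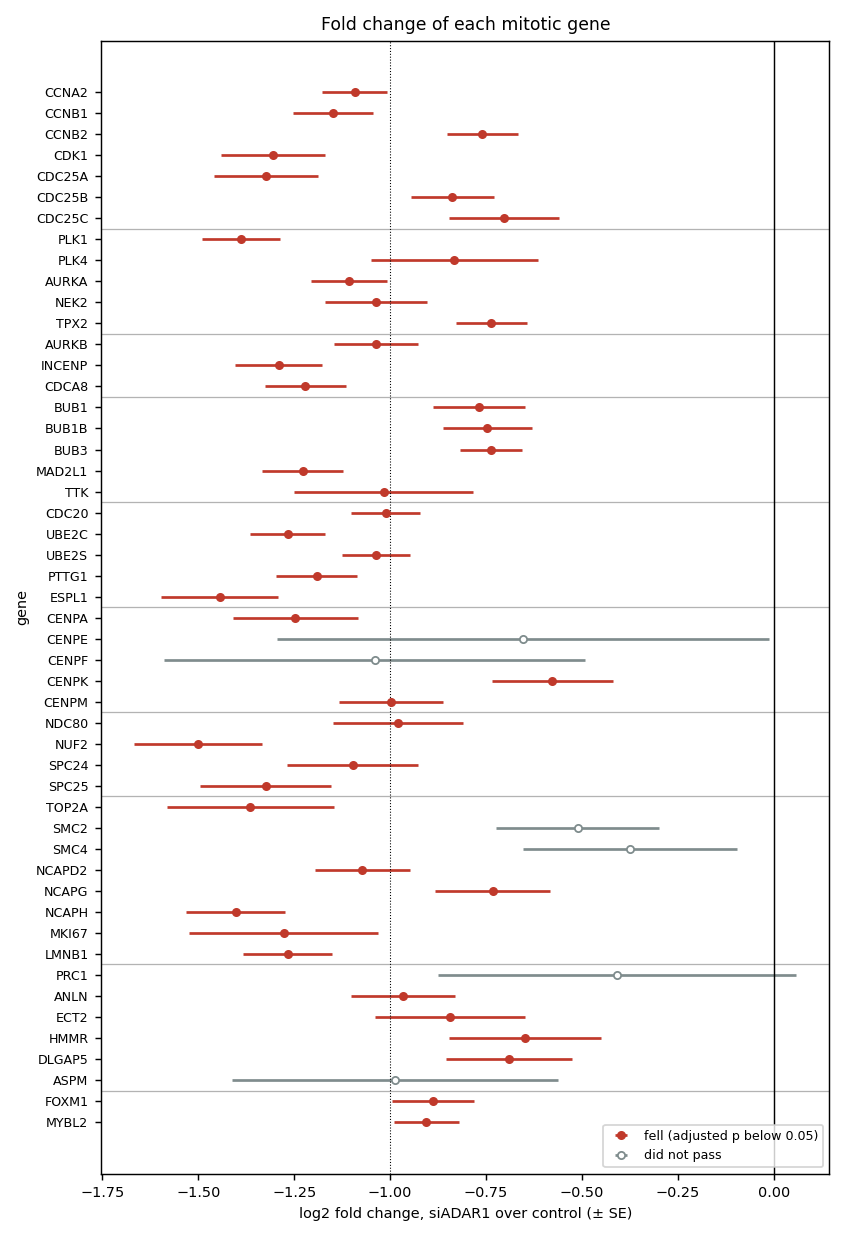
Points show the log2 fold change of each gene, siADAR1 over control, with bars of ± SE, in the same order by role as in the heat map; filled points passed and open points did not. All 50 points lie left of 0, and the 6 open points are CENPE, CENPF, SMC2, SMC4, PRC1 and ASPM.

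Of 5 centromere genes, 3 fell and 2 did not pass. CENPA (ENSG00000115163, chromosome 2, 26764289 to 26801067), the histone H3 variant that marks centromeres, had 9.42, 13.9 and 13.5 CPM in siADAR1 libraries, against 25.3, 31.6 and 30.2 CPM in control libraries. Its libraries did not overlap, and the log2 fold change was -1.25 ± 0.16 (edgeR adjusted p = 3.91e-05). CENPM and CENPK, subunits of the constitutive centromere network on which kinetochores are built, had log2 fold changes of -0.997 ± 0.14 and -0.58 ± 0.16 (edgeR adjusted p = 5.51e-05 and 0.00783). CENPK, the smaller of those falls, had an adjusted p of 0.0502 without control replicate 2, within a range of 4.04e-05 to 0.0813. CENPE, a plus-end directed motor that aligns chromosomes, had 22.1, 42.1 and 53.7 CPM in siADAR1 libraries, against 22.8, 69.8 and 92.7 CPM in control libraries. CENPF, a large protein of the outer kinetochore, had 45.3, 93.01 and 109.9 CPM in siADAR1 libraries, against 82.4, 197 and 231 CPM in control libraries. In both genes control replicate 1 lay among the siADAR1 libraries, and the log2 fold changes of -0.65 ± 0.64 for CENPE and -1.04 ± 0.55 for CENPF did not pass (edgeR adjusted p = 0.452 and 0.187).

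The NDC80 complex, the rod that joins kinetochores to microtubules, fell in all 4 subunits. NUF2 (ENSG00000143228, chromosome 1, 163266576 to 163355764) had the largest fold change of the 50 genes, with 11.8, 16.04 and 15.6 CPM in siADAR1 libraries, against 31.7, 45.1 and 46.2 CPM in control libraries. ESPL1 exceeded it without siADAR1 replicate 3 or control replicate 2, and PLK1 without control replicate 3 or on the FPKM scale with a pseudocount of 1. It fell to 35.4% of control, a log2 fold change of -1.50 ± 0.17 (edgeR adjusted p = 1.08e-05). NDC80 (ENSG00000080986, chromosome 18, 2571511 to 2616635), whose product pairs with NUF2 at the microtubule end, had 33.7, 49.02 and 50.9 CPM in siADAR1 libraries, against 70.4, 101 and 91.5 CPM in control libraries. Its log2 fold change was smaller, at -0.98 ± 0.17 (adjusted p = 7.27e-04). SPC25 and SPC24, which form the end of the rod that faces the centromere, averaged 8.77 ± 1.80 and 10.7 ± 2.57 CPM in siADAR1, against 21.9 ± 2.71 and 22.8 ± 0.933 CPM in control (SD, n = 3 each). Their log2 fold changes were -1.32 ± 0.17 for SPC25 and -1.10 ± 0.17 for SPC24.

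The condensin subunits, which compact chromosomes for division, fell in 3 of 5 genes. NCAPH (ENSG00000121152, chromosome 2, 96335787 to 96373845), the kleisin that closes the condensin ring, had 26.8, 39.02 and 37.00 CPM in siADAR1 libraries, against 87.1, 90.5 and 93.9 CPM in control libraries, and fell to 37.9% of control. NCAPD2, a HEAT-repeat subunit, fell to 47.6% and NCAPG, the other such subunit, to 60.2%, with log2 fold changes of -1.40 ± 0.13 for NCAPH, -1.07 ± 0.12 for NCAPD2 and -0.73 ± 0.15 for NCAPG (edgeR adjusted p = 2.72e-06, 1.97e-05 and 0.00138). Neither gene of the ATPase core passed. SMC4 had 162, 236 and 242 CPM in siADAR1 libraries, against 179.9, 308 and 342 CPM in control libraries, and SMC2 had 67.4, 89.4 and 82.2 CPM in siADAR1 libraries, against 76.8, 128 and 136 CPM in control libraries. The groups overlapped for both core genes, at control replicate 1, with log2 fold changes of -0.38 ± 0.28 for SMC4 and -0.51 ± 0.21 for SMC2 (edgeR adjusted p = 0.31 and 0.0775). DESeq2 called SMC2 lower (adjusted p = 0.00965, within a range of 8.50e-09 to 0.255).

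Other chromosome genes fell. TOP2A (ENSG00000131747, chromosome 17, 40388516 to 40417950), the topoisomerase that untangles sister chromatids, had 129, 186 and 188 CPM in siADAR1 libraries, against 312, 481 and 502 CPM in control libraries. MKI67 (ENSG00000148773, chromosome 10, 128096659 to 128126385), which encodes the proliferation marker Ki-67 on the surface of mitotic chromosomes, had 86.4, 153 and 134 CPM in siADAR1 libraries, against 232, 312 and 359.9 CPM in control libraries. LMNB1 (ENSG00000113368, chromosome 5, 126776623 to 126837020), a nuclear lamina gene whose loss is used as a sign of senescence, had 86.3, 121 and 119.7 CPM in siADAR1 libraries, against 253, 266 and 268 CPM in control libraries. In all 3 the lowest control library exceeded the highest siADAR1 library, with log2 fold changes of -1.36 ± 0.22 for TOP2A, -1.28 ± 0.25 for MKI67 and -1.27 ± 0.12 for LMNB1 (edgeR adjusted p = 0.0015, 0.0049 and 2.74e-06).

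Of 6 spindle and cytokinesis genes, 4 fell and 2 did not pass. Their median log2 fold change was -0.77, as in the checkpoint genes. ANLN (ENSG00000011426, chromosome 7, 36389806 to 36453791), which encodes anillin of the contractile ring, had 209.9, 269 and 276 CPM in siADAR1 libraries, against 398, 519 and 558 CPM in control libraries. ECT2, the exchange factor that switches on RhoA at the division plane, averaged 121 ± 20.7 CPM in siADAR1 and 217 ± 52.3 CPM in control (SD, n = 3 each). The log2 fold changes were -0.97 ± 0.14 for ANLN and -0.84 ± 0.20 for ECT2 (edgeR adjusted p = 1.40e-04 and 0.00737). DLGAP5, a spindle assembly factor also called HURP, had -0.69 ± 0.16. HMMR, a spindle protein and hyaluronan receptor, had 36.3, 47.4 and 49.5 CPM in siADAR1 libraries, against 48.2, 79.8 and 80.7 CPM in control libraries, so that siADAR1 replicate 3 slightly exceeded control replicate 1. The HMMR log2 fold change of -0.65 ± 0.20 passed with an edgeR adjusted p of 0.021, but not without siADAR1 replicate 1 (0.0958), control replicate 2 (0.0667) or control replicate 3 (0.0565), within a range of 4.67e-09 to 0.128. ASPM, a spindle pole protein, had 33.7, 65.2 and 66.4 CPM in siADAR1 libraries, against 62.4, 123 and 142 CPM in control libraries, and its log2 fold change of -0.99 ± 0.42 did not pass (adjusted p = 0.114).

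PRC1, which bundles the microtubules of the central spindle, could not be measured well. It had 11, 12 and 13 counts in siADAR1 libraries, against 25, 12 and 9 in control libraries, and its log2 fold change of -0.41 ± 0.47 did not pass (edgeR adjusted p = 0.489) and turned to 0.06 without control replicate 1. In GENCODE 29, 57.6% of its exonic bases also belong to AC068831.7, a protein-coding gene on the same strand, which had 37, 22 and 43 counts in siADAR1 libraries and 94, 67 and 100 in control libraries. How reads shared by overlapping genes were counted is not given in the sources used here. Exons of 15 of the 50 genes overlap those of another gene, and the overlap exceeds 10% for 6 of them. Besides PRC1 these are NCAPG (33.1% with LCORL), SMC4 (18.5% with TRIM59 and 7.2% with IFT80), FOXM1 (15.9% with ITFG2), PLK1 (11.6% with an antisense gene of at most 2 counts) and BUB1B (10.2% with a readthrough gene of at most 1 count). No strand-marking step is described for the libraries, so in the opposite-strand cases reads of the partners cannot be told apart.

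Both transcription factors of the programme fell. MYBL2 (ENSG00000101057, chromosome 20, 43667019 to 43716496), which encodes B-MYB, had 475, 558 and 567 CPM in siADAR1 libraries, against 1031, 1007 and 959 CPM in control libraries. FOXM1 (ENSG00000111206, chromosome 12, 2857681 to 2877155), a forkhead factor that acts with B-MYB, had 100.3, 134 and 128 CPM in siADAR1 libraries, against 236, 218 and 217 CPM in control libraries. The groups were separate for each gene, and the log2 fold changes of -0.91 ± 0.09 for MYBL2 and -0.89 ± 0.11 for FOXM1 were close to each other (edgeR adjusted p = 3.13e-06 and 2.07e-05).

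Apart from PRC1, the genes that did not pass had a lower level in replicate 1 than in replicates 2 and 3 of both groups. Replicate 1 was the lowest library for 46 of the 50 genes in siADAR1 and for 36 in control. The ratio of replicate 1 to the mean of replicates 2 and 3 for CENPE was 0.462 in siADAR1 and 0.281 in control. For CENPF it was 0.446 in siADAR1 and 0.385 in control, for ASPM 0.512 in siADAR1 and 0.471 in control, for SMC4 0.678 in siADAR1 and 0.553 in control and for SMC2 0.785 in siADAR1 and 0.582 in control, against medians over the 50 genes of 0.771 in siADAR1 and 0.894 in control. In siADAR1 the SMC2 ratio was thus not below the median. Genes that passed also had low ratios, as TTK (0.695 in siADAR1 and 0.585 in control) and PLK4 (0.755 in siADAR1 and 0.576 in control). CENPE, CENPF, ASPM, SMC4 and SMC2 have models of over 6 kb. So do BUB1, ANLN, TOP2A, NCAPD2, BUB3, ESPL1 and MKI67, which passed, and MKI67 has the longest model of the 50. For the 7 of the 50 genes over 8 kb, the median log2 ratio of replicate 1 to the others was -0.73 in siADAR1 and -0.85 in control, while for all 2998 tested genes of that length it was -0.03 and -0.08. BUB3, also over 8 kb, had ratios of 1.05 in siADAR1 and 0.990 in control. With both libraries numbered 1 left out, chosen after the data had been seen, the log2 fold changes were -0.76 (adjusted p = 0.00473) for CENPE, -1.08 (adjusted p = 1.50e-11) for CENPF, -1.01 (adjusted p = 8.52e-13) for ASPM, -0.45 (adjusted p = 8.68e-07) for SMC4 and -0.62 (adjusted p = 8.50e-09) for SMC2, and all 5 passed. The ranges of adjusted p over all 17 alternatives were 7.36e-04 to 0.789 for CENPE, 1.50e-11 to 0.351 for CENPF, 8.52e-13 to 0.273 for ASPM and 8.68e-07 to 0.62 for SMC4. Without control replicate 1 alone, ASPM (-1.28, adjusted p = 0.0243), SMC4 (-0.62, adjusted p = 0.011) and SMC2 (-0.74, adjusted p = 1.06e-04) passed. CENPE (-1.06, edgeR adjusted p = 0.102) and CENPF (-1.39, edgeR adjusted p = 0.0715) did not. What set these libraries apart was not tested.

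**Figure D3:**
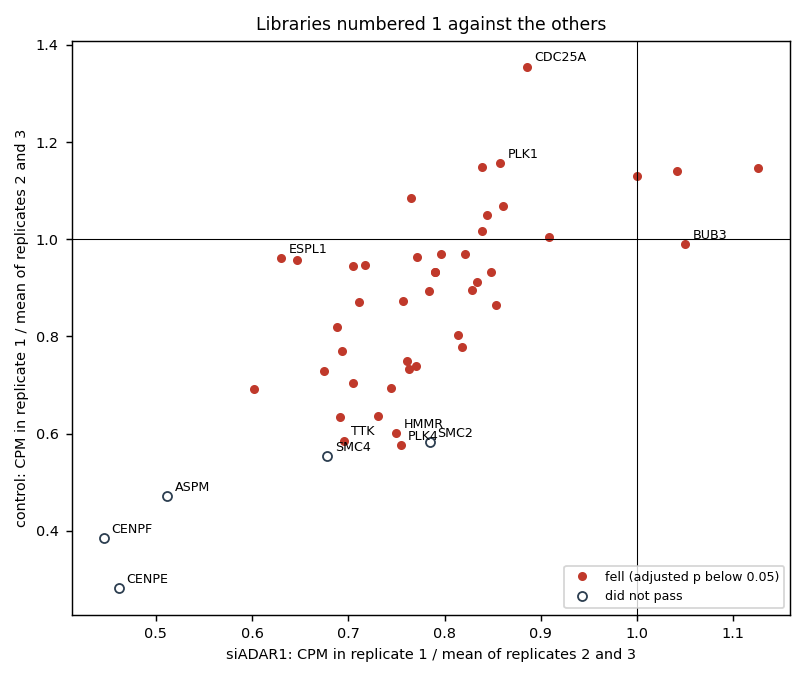
Each point is a gene (PRC1 left out), with the ratio of CPM in replicate 1 to the mean of replicates 2 and 3 in siADAR1 on the horizontal axis and in control on the vertical axis. CENPE, CENPF and ASPM lie lowest in both groups, with ratios of 0.462, 0.446 and 0.512 in siADAR1 and 0.281, 0.385 and 0.471 in control.

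Levels per gene length span a wide range. On the deposited FPKM scale (fragments per kilobase per-million), MYBL2 was the highest of the 50, at 189.6 ± 17.9 FPKM in siADAR1 and 356 ± 12.8 FPKM in control (SD, n = 3 each). UBE2C had 87.6 ± 10.2 FPKM in siADAR1 and 211 ± 12.6 FPKM in control, TPX2 99.5 ± 10.4 FPKM in siADAR1 and 166 ± 10.8 FPKM in control, CDC20 67.3 ± 6.86 FPKM in siADAR1 and 136 ± 2.84 FPKM in control and CCNB1 48.1 ± 6.83 FPKM in siADAR1 and 107 ± 3.70 FPKM in control. UBE2C thus stood above TPX2 in control and below it in siADAR1. At the low end of the control order, PRC1 aside, CDC25C had 3.27 ± 0.281 FPKM in siADAR1 and 5.35 ± 0.425 FPKM in control and CENPE 4.11 ± 1.66 FPKM in siADAR1 and 6.48 ± 3.74 FPKM in control, and these 2 did not differ beyond their spread in control. In siADAR1 the means of ESPL1, SPC24 and TTK, at 3.51, 3.72 and 3.88 FPKM, also lay below that of CENPE. Of the lower genes, CDC25A had 5.58 ± 0.473 FPKM in siADAR1 and 14.01 ± 2.55 FPKM in control, CENPA 6.10 ± 1.23 FPKM in siADAR1 and 14.5 ± 1.67 FPKM in control and NUF2 4.26 ± 0.688 FPKM in siADAR1 and 12.1 ± 2.39 FPKM in control.

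**Figure D4:**
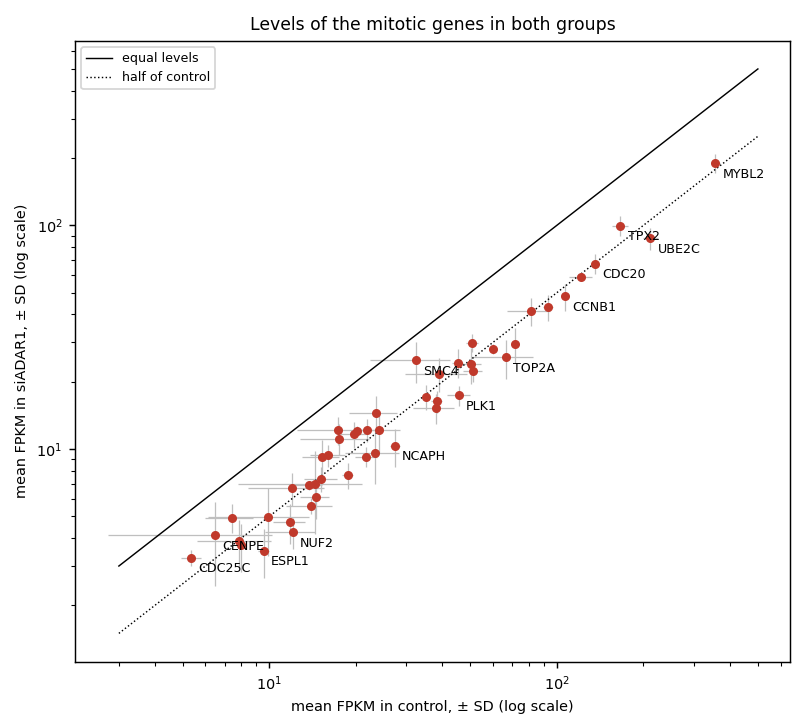
Each point is a gene (PRC1 left out), with its mean deposited FPKM in siADAR1 on the vertical axis and in control on the horizontal axis, both logarithmic, and bars of ± SD over 3 libraries. All points lie under the line of equal levels, most near the dotted line at 50% of control, from MYBL2 at 190 FPKM in siADAR1 and 356 FPKM in control down to CDC25C at 3.27 and 5.35 FPKM.

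Partner genes were compared within each library, where the scaling of libraries cancels out. In 6 of 12 pairs the FPKM ratio did not overlap between groups, and in the other 6 it did. The share among other pairs of genes was not computed, so this count cannot be read as particular to these partners. With 3 libraries against 3 the smallest p of an exact permutation test is 0.10, which each of the 6 reached, and adjusted over the 12 pairs it is 0.20, so none passes. NUF2 to NDC80 had ratios of 0.374, 0.350 and 0.329 in siADAR1 libraries, against 0.482, 0.476 and 0.540 in control libraries, a log2 difference of -0.51 ± 0.08 (SE). TPX2 to its kinase AURKA had 2.39, 2.25 and 2.31 in siADAR1 libraries, against 1.74, 1.78 and 1.84 in control libraries, a difference of 0.38 ± 0.03. Within condensin, NCAPD2 to NCAPH had 2.33, 2.26 and 2.37 in siADAR1 libraries, against 1.74, 1.96 and 1.83 in control libraries (0.33 ± 0.05). INCENP to AURKB had 0.446, 0.423 and 0.477 in siADAR1 libraries, against 0.520, 0.540 and 0.544 in control libraries (-0.25 ± 0.05), and CDCA8 to AURKB differed by -0.18 ± 0.07. MAD2L1 to CDC20 had 0.139, 0.140 and 0.134 in siADAR1 libraries, against 0.143, 0.170 and 0.167 in control libraries (-0.21 ± 0.08). The overlapping pairs were CCNB1 to CDK1 (0.15 ± 0.12), CDC25B to CDC25C (-0.14 ± 0.14), BUB3 to BUB1 (0.03 ± 0.17), UBE2S to UBE2C (0.24 ± 0.14), SPC24 to SPC25 (0.21 ± 0.12) and SMC4 to SMC2 (0.13 ± 0.09), with two-sided exact permutation p of 0.40, 0.70, 0.70, 0.30, 0.20 and 0.30.

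**Figure D5:**
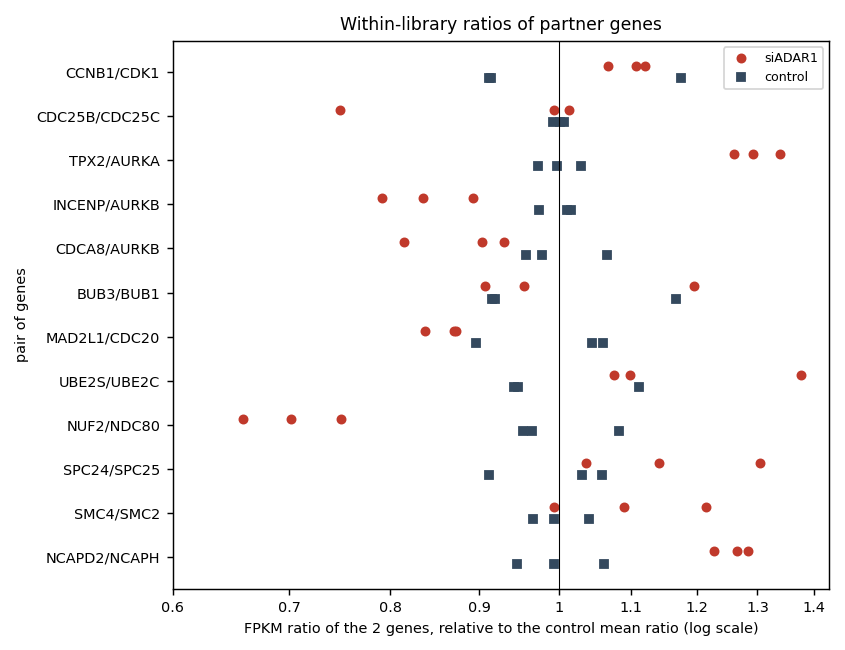
For each pair of genes, points show the FPKM ratio in each library divided by the mean ratio of the control libraries, on a logarithmic axis, with siADAR1 as circles above and control as squares below. TPX2/AURKA and NCAPD2/NCAPH lie to the right in siADAR1 and NUF2/NDC80, INCENP/AURKB, CDCA8/AURKB and MAD2L1/CDC20 to the left, with no overlap, at an exact p of 0.10 each.

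Beyond the 50 genes, 110 further mitotic genes were listed by complex, and 109 could be tested. Of these 63 fell, 7 rose and 39 did not pass. Their median log2 fold change was -0.41. Their share that fell was thus also above the 25.0% of all tested genes, with a smaller median than that of the 50. Their share that rose was below the 26.0% of all tested genes. With library totals alone 51 fell and 10 rose. Without control replicate 1 the numbers were 77 and 9, and without both libraries numbered 1 they were 76 and 10. A CHR, as TTTGAA or TTTAAA, was found in the promoters of 40 of the 93 that matched (43.0%).

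Of 17 genes of the inner kinetochore and of CENPA loading, 12 fell and 0 rose in edgeR (also 0 at an unadjusted p below 0.05, in DESeq2 and in limma-voom). CENPN, which reads the CENPA nucleosome, averaged 18.7 ± 0.474 CPM in siADAR1 and 46.8 ± 2.19 CPM in control (SD, n = 3 each), a log2 fold change of -1.33, HJURP, the chaperone that loads CENPA, had -1.09 and OIP5, a part of the licensing complex for loading, -1.19. Of 20 genes of the outer kinetochore and checkpoint, 13 fell and 2 rose, the latter a smaller share than among all tested genes. BIRC5 and DSN1, a kinetochore linker, had -1.15 and -1.10, and TRIP13, which acts on MAD2 to take the checkpoint complex apart, had -0.84. ZW10, part of the complex that brings dynein to kinetochores, rose by 0.89 on the log2 scale and MAD1L1, the partner of MAD2, by 0.56, averaging 57.6 ± 4.97 CPM in siADAR1 and 39.01 ± 1.77 CPM in control (SD, n = 3 each), while MAD2L1 fell.

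Of the 16 genes listed for the APC/C and its regulators, 7 fell and 0 rose. The median was 0.01, and 1 was higher at an unadjusted p below 0.05 in edgeR, 0 in DESeq2 and 0 in limma-voom. The fall with the smallest p was that of FBXO5, which encodes the inhibitor EMI1 and is no subunit, with -1.27, followed by the subunit genes CDC23 (-0.68) and ANAPC5 (-0.43). Of 16 genes of cohesin and the second condensin, 8 fell and 2 rose, again a smaller share of rises than among all tested genes. Sororin (CDCA5), which protects cohesion, had -1.04, and the condensin genes NCAPG2 and NCAPD3 had -0.90 and -0.88, while ESCO1, a cohesin acetyltransferase, rose by 0.87 and MAU2, a cohesin loader, by 0.54. Among 26 tested genes of spindle, centrosome and cytokinesis, 17 fell and 0 rose, with 0 higher at an unadjusted p below 0.05 in edgeR, 0 in DESeq2 and 0 in limma-voom. SPAG5 (astrin), SHCBP1 and RACGAP1, the partner of ECT2 at the midzone, had -1.15, -1.18 and -0.87.

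Of 8 genes of the switch that controls mitotic entry, 5 fell and 2 rose, and the share that rose was close to that of all tested genes. GTSE1, a microtubule-binding protein of late cell cycle, averaged 27.3 ± 4.19 CPM in siADAR1 and 83.1 ± 7.21 CPM in control (SD, n = 3 each), a log2 fold change of -1.61 ± 0.13 (edgeR adjusted p = 7.30e-07). ARPP19, an inhibitor of the phosphatase PP2A-B55, had 102, 124 and 126 CPM in siADAR1 libraries, against 281, 297 and 299.8 CPM in control libraries, a log2 fold change of -1.32, and PKMYT1, which inhibits CDK1, had -0.91. PPP2R2A, a B55 subunit of that phosphatase, rose by 0.70 and ENSA, the paralogue of ARPP19, by 0.40. Of 6 genes in the list of MuvB core subunits and MYBL1, 4 did not pass, and the share called in each direction was below that of all tested genes. The core subunit gene RBBP4 fell (-0.52), and MYBL1, which encodes A-MYB and is no core subunit, rose. MYBL1 had 26.1, 25.6 and 25.1 CPM in siADAR1 libraries, against 12.6, 11.98 and 14.7 CPM in control libraries, a log2 fold change of 0.97 ± 0.13 (edgeR adjusted p = 5.44e-05), the opposite direction to its paralogue MYBL2.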

How the data were processed

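The authors deposited gene counts with no normalization and FPKM values, per the file headers. Per the submitters' processing notes, the tools were CASAVA, fastp and HISAT2 2.0.5, but their roles were not listed, and no counting tool, build or annotation was given there. All 58735 gene coordinates equalled those of GENCODE 29 (GRCh38). FPKM carry a library factor set by the authors, 1.05 to 1.06 of the count total in siADAR1 and 0.966 to 0.970 in control, and their deposited group means were not used. Column names gave group and replicate number, and 0 columns had no sample.

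Differences in counts were tested with edgeR 4.0.16 under R 4.3.3 (filterByExpr with a minimum count of 10, TMM, robust quasi-likelihood test with group as the only term, Benjamini-Hochberg adjustment over 15294 genes, two-sided). The SE is the log2 fold change divided by the square root of F. Partner ratios used FPKM and two-sided exact permutation tests. The alternatives were other scalings, DESeq2 1.42.0, limma-voom and FPKM in limma 3.58.1, other filters, a replicate block, and libraries left out. Every member could be named, and of each further list up to 3 genes with the smallest p in each direction. The members, lists and tests were chosen with earlier results of these data known. The batch label is identical for all 6 samples, and no term for it could be used.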

Additional observations from a re-analysis of the deposited data

How the results depend on the processing

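Over 17 alternatives the number of the 50 genes that fell ranged from 39 (FPKM with a pseudocount of 1 and no filter) to 49 (replicate block, or without both libraries numbered 1), and 0 rose in every one. Leaving out 1 library gave 42 to 47 falls, with medians of -1.12 to -0.92. Of 847 single-gene values, 819 kept direction and side of the threshold. Leaving out 1 library moved PRC1 between -0.67 and 0.0590, and it turned to the higher value without control replicate 1 and to 0.18 without both libraries numbered 1, and could not be fitted under 3 stricter filters, so 14 alternatives gave it a value. With FPKM, a pseudocount of 1 and no filter, PLK4, TTK, CENPK, HMMR and DLGAP5 did not pass (adjusted p = 0.0803, 0.0516, 0.0813, 0.128 and 0.0586), within ranges of 4.72e-10 to 0.0803, 5.96e-12 to 0.0516, 4.04e-05 to 0.0813, 4.67e-09 to 0.128 and 2.72e-09 to 0.0586 over their alternatives. The cause was not tested. The log2 ratio of BUB3 to BUB1, -0.0946 to 0.142 with 1 library left out, turned to -0.0946 without siADAR1 replicate 1, -0.0335 without control replicate 2 and -0.0306 without control replicate 3, and the log2 ratio of CDC25B to CDC25C, from -0.214 upwards, to 0.00489 without siADAR1 replicate 1. Same-numbered libraries deviated together with r of 0.25, 0.0844 and 0.106. Unlike numbers came close to the last 2 values, at 0.0668 for siADAR1 replicate 2 with control replicate 3 and 0.0917 for siADAR1 replicate 3 with control replicate 2. Of 6 libraries 5 correlated best with their own number, a count that reads the same correlations from both groups. The numbers were not taken as pairs because 1 of the 3 same-number values was under 0.1. With the replicate block 49 genes fell, all tested genes gave 4396 rises and 4186 falls, against 3973 and 3831 without it, and CENPE, CENPF, SMC2, SMC4 and ASPM passed. PRC1 had low counts, and CENPE, CENPF and ASPM had the lowest ratios of replicate 1 to the other replicates in both groups. Whether these features account for the missing calls was not tested.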
